A study of Drosophila melanogaster with 12 samples.

Results

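Ionotropic receptor genes of the Drosophila melanogaster genome were followed in the forelegs of male flies. The genes were chosen by name, as every gene whose symbol is Ir followed by a cytological number and 1 letter, without the 4 Ir52 genes and without Ir8a, Ir31a, Ir64a, Ir75a and Ir84a, which are known from the antenna. The rule gave 57 of the 17807 genes in the count table. It uses symbols only, but was set with earlier results of these data known. The 12 libraries of male foreleg RNA came from 4 genotypes with 3 biological replicates apiece, namely a CS/CO13N hybrid and the strains CO13N, CS and RG11N. The series calls CO13N and the hybrid selective and CS and RG11N promiscuous. The labels used here give neither age, the direction or generation of the cross, nor how many legs were pooled for a library, and no transgene or treatment is named.

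Ionotropic receptors are ligand-gated cation channels of sensory neurons, related to the glutamate receptors of synapses. A receptor is thought to combine a broadly expressed co-receptor, such as Ir25a, Ir76b or Ir93a, with 1 or more tuning subunits that set what the neuron responds to. In flies they serve smell, taste, temperature and humidity sensing, and legs carry taste hairs whose neurons use several of them. No sequences of these genes were used here.

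Library totals ran from 26374831 to 36034966 counts, so that 3 counts, taken as the limit that a count of 0 allows, corresponded to 0.0784 to 0.117 CPM (counts scaled to the library total) in a single library. This limit covers counting error only. Scr, which specifies the foreleg segment, was at 222 to 314 CPM in every library. The leg taste hair list of ppk23, ppk25, ppk29 and Poxn summed to 978 to 2040 CPM, with Poxn itself at 0 to 1.28 CPM. Transcripts known from the antenna were also present in some libraries. The 60 odorant receptor genes, of which 49 had a count, summed to 88.6, 248 and 139 CPM in CS replicates 1, 2 and 3, to 250 CPM in hybrid replicate 3 and, for RG11N replicate 3, to 138 CPM. The other 7 libraries, all of CO13N among them, held 13.4 to 24.1 CPM of them. The neuronal marker sum ranged from 3070 to 3680 CPM for RG11N and from 1960 to 2600 CPM for the rest. Glial markers summed to 223 to 281 CPM in CO13N and 228 to 243 in the hybrid, against 162 to 193 in CS and 119 to 176 in RG11N. Muscle markers summed to 573 to 7810 CPM over the libraries and varied widely within each genotype. The part of these tissues in the differences below was not tested. In bulk tissue, fewer cells of a type and less RNA per cell cannot be told apart.

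Of the 57 genes, 42 had at least 1 count in some library and 15 had none in any. The 15 without a count were Ir7e, Ir47b, Ir54a, Ir56c, Ir56e, Ir60e, Ir60f, Ir67b, Ir67c, Ir68b, Ir94a, Ir94b, Ir94d, Ir94f and Ir94g. A count was found in all 12 libraries for 11 genes, in 4 to 11 libraries for 20 and in 1 to 3 libraries for 11. The filter on low counts was passed by 29, and the other 13 detected genes held between 3 and 62 counts over all libraries. The annotation lists 6 of the 57 as pseudogenes, of which Ir48a, Ir51a and Ir60c had a count and Ir51a and Ir60c passed the filter. Genes that share a number, and so a cytological region, were unevenly represented. Of those numbered Ir94, 3 of 8 genes had a count and only Ir94h passed the filter, whereas of those numbered Ir7 on the X chromosome 6 of 7 had a count and Ir7a, Ir7c, Ir7d and Ir7g passed. For Ir60 the numbers were 4 of 6 with Ir60a and Ir60c passing, for Ir56 they were 3 of 5 with Ir56b and Ir56d passing, and for Ir67 a single gene, Ir67a, had counts, 33 in CS replicate 2.

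**Figure D1:**
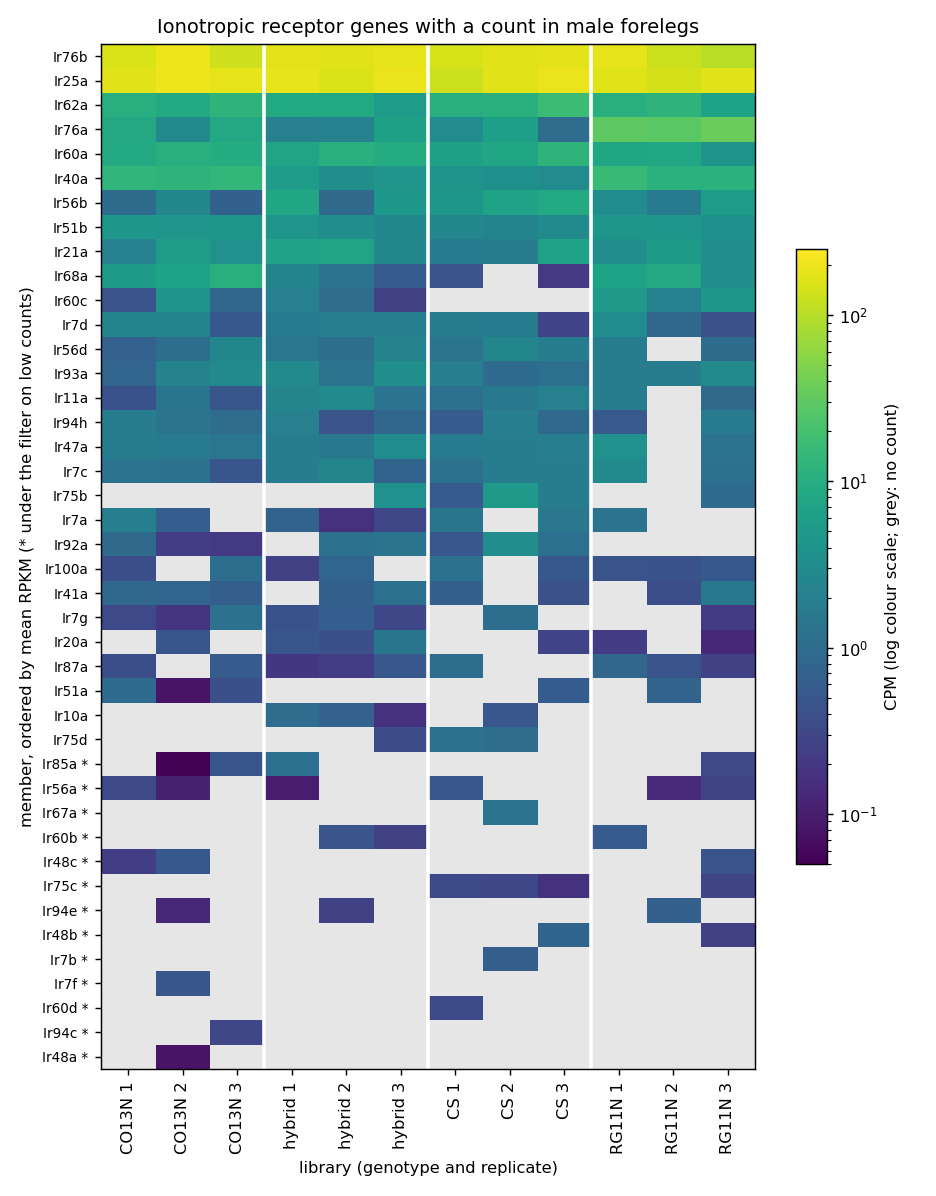
Heat map of the 42 ionotropic receptor genes with a count, 1 row per gene in order of mean RPKM and 1 column per library, coloured by CPM on a log scale, with grey where there was no count and an asterisk at the 13 genes under the filter on low counts. Ir76b and Ir25a are bright in all 12 libraries, 11 genes have no grey cell, and the lower rows hold scattered counts.

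Both broad co-receptors stood far above all the other genes. Together Ir25a and Ir76b took 82% of the counts of the 57 genes, with 65053 and 61545 counts, and between 74.2 and 86.3% in a single library. Per length, as CPM per kilobase of exon (RPKM, mean ± SD of the 12 libraries), Ir76b stood at 70.1 ± 12.1 and Ir25a at 47.7 ± 5.96. The next genes were Ir62a at 5.68 ± 1.6, Ir76a at 5.33 ± 5.9, Ir60a at 4.04 ± 1.07, Ir40a at 2.9 ± 1.68, Ir56b at 2.69 ± 1.87 and Ir51b at 2.05 ± 0.484. Ir21a, Ir68a and Ir60c followed at 1.6, 1.58 and 1.25 RPKM, and every other gene was under 1 RPKM. Except for the step from Ir25a to Ir62a, neighbours in this order overlapped in their range over the libraries. For comparison, among the glutamate receptor genes related to this family, Grik stood at 4.28 RPKM, clumsy at 3.02 and Nmdar1 at 1.13.

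Ir25a, the most widely used co-receptor (FBgn0031634, chromosome 2L, 4830846 to 4835300), showed no difference between genotypes that passed. It stood at 168, 201 and 181 CPM in CO13N replicates 1 to 3, at 185, 159 and 193 CPM in those of the hybrid, at 129, 170 and 196 CPM in those of CS and at 164, 143 and 166 CPM in those of RG11N. The CO13N libraries all lay above the RG11N libraries, and the other 5 pairs of genotypes overlapped. Over the 6 pairs of genotypes its log2 fold change lay between -0.07 and 0.22, and the widest bounds of the approximate 95% intervals were 0.769-fold and 1.44-fold. Ir76b, a co-receptor of taste and of amine-sensing neurons (FBgn0036937, chromosome 3L, 20108484 to 20111534), stood at 156, 203 and 136 CPM in CO13N, 175, 172 and 184 CPM in the hybrid, 150, 169 and 179 CPM in CS and 185, 130 and 103 CPM in RG11N. The lowest value belonged to RG11N replicate 3, and the groups overlapped. Its log2 fold change over the 6 pairs lay between -0.26 and 0.35, with bounds of 0.641-fold and 1.66-fold. edgeR called neither gene in any comparison. Ir93a, the co-receptor of cool and humidity sensing, was much lower, at 0.817 to 3.49 CPM over the 12 libraries, and was not called either.

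**Figure D2:**
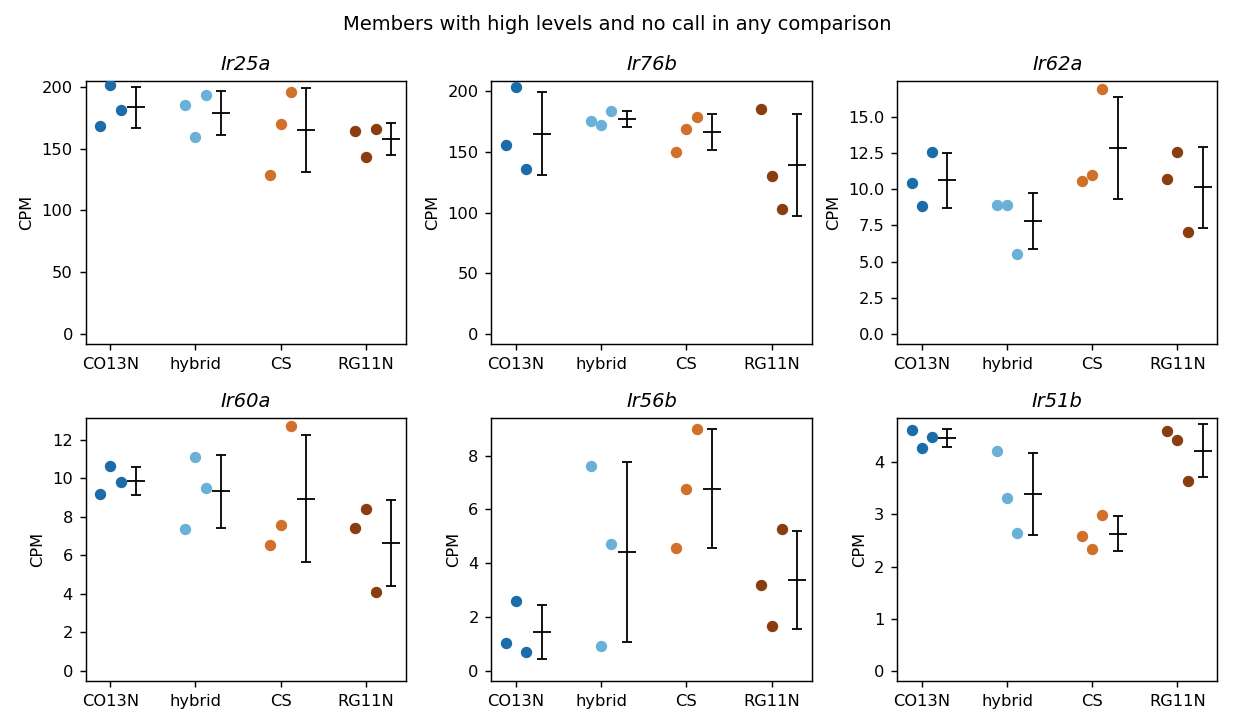
CPM of 6 ionotropic receptor genes that edgeR did not call in any comparison, with 1 point per library and the mean ± SD (n = 3) in black beside each genotype. Ir25a and Ir76b lie between 103 and 203 CPM in all libraries, and Ir56b lies between 0.71 and 2.59 CPM in CO13N against 4.55 to 8.98 CPM in CS.

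Differences between genotypes were tested with edgeR's quasi-likelihood F test in 1 model of 4 genotype means over all 10996 genes that passed the filter, with calls made where the p adjusted by Benjamini-Hochberg fell under 0.05. In the test for any difference among the 4 genotypes, 4 of the 29 tested genes were called, Ir40a, Ir68a, Ir60c and Ir76a, where 6.47% of all tested genes were. CO13N against CS called 3 of 29, all higher in CO13N, with 3.14% of all genes called (1.79% higher, 1.35% lower). RG11N against CS called 4, all higher in RG11N, with 5.77% of all genes called (2.94% higher, 2.83% lower). The hybrid differed from CS in 1 gene, higher in the hybrid, where 0.973% of all genes were called (0.773% higher, 0.2% lower). It differed from RG11N in 2, both lower in the hybrid, where 4.47% were called (2.76% higher, 1.71% lower). From CO13N it differed in 1, lower in the hybrid, where 0.255% were called (0.2% higher, 0.0546% lower). Counts of 1 to 4 genes are too small to set these shares apart from the background. The comparisons with CS share its 3 libraries and are not independent.

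CO13N against RG11N called 0 of 29 by edgeR (2 at an unadjusted p under 0.05, 3 by DESeq2, 1 by voom), where 4.1% of all genes were called (2.31% higher, 1.79% lower). The contrast named in the series' labels of behaviour, the mean of the selective genotypes against the mean of the promiscuous ones, also called 0 of 29 by edgeR (4 at an unadjusted p under 0.05, 2 by DESeq2, 0 by voom), with 3.92% of all genes called (2.6% higher, 1.32% lower). The median log2 difference of the 29 genes in that contrast was 0.17, against 0.01 over all tested genes. The 4 genes with an unadjusted p under 0.05 were Ir60c, Ir68a, Ir76a and Ir92a, with adjusted p between 0.0652 and 0.288 in edgeR. Of these the nearest was Ir60c, at a log2 difference of 3.46 (edgeR adjusted p = 0.0652). It passed by edgeR without CO13N replicate 1 (adjusted p = 0.0488) or without a filter (0.0466), and by DESeq2 (0.0149). The positive sign rested on CS, which had no count of Ir60c. Against CS the log2 differences were 8.74 for CO13N and 8.12 for the hybrid, but against RG11N they were -1.19 and -1.81. Ir60c was highest in promiscuous RG11N, with a mean of 3.87 CPM against 1.69 CPM for CO13N and 1.1 CPM for the hybrid.

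**Figure D3:**
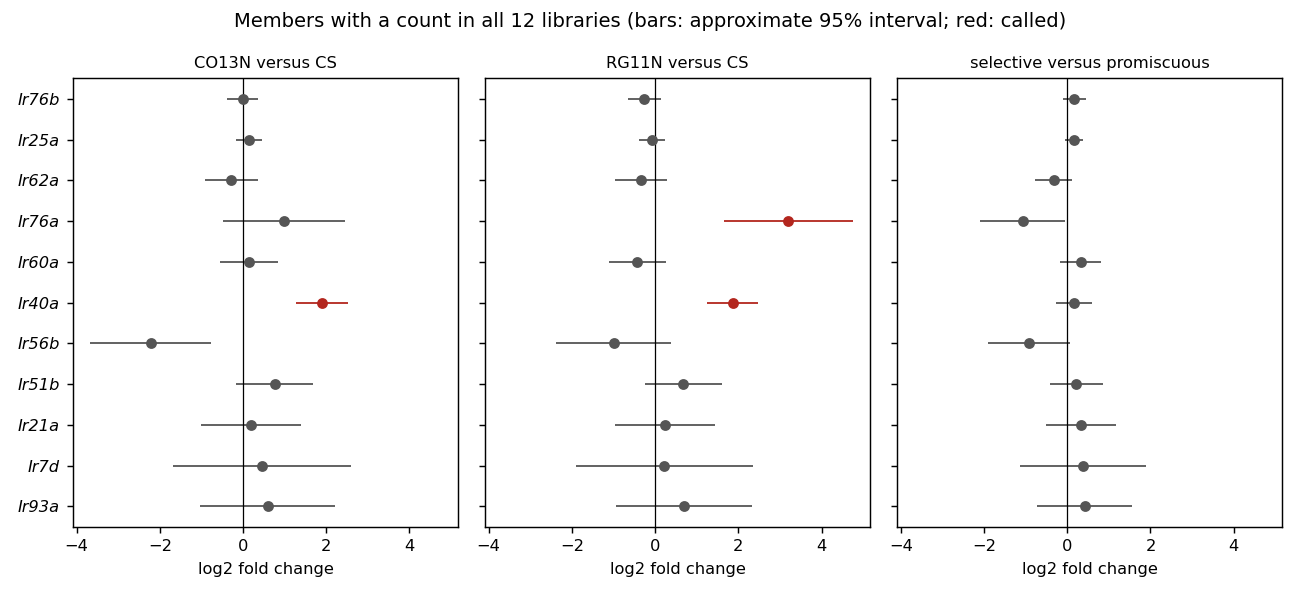
Log2 fold change of the 11 ionotropic receptor genes with a count in all 12 libraries, in 3 comparisons, with approximate 95% intervals as bars and called genes in red. Ir40a is called in CO13N and in RG11N against CS (1.9 and 1.86), Ir76a in RG11N against CS (3.2), and no gene in the selective against the promiscuous mean.

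Among the receptors of temperature and humidity, Ir40a and Ir68a differed between genotypes and Ir21a did not pass. Ir40a, needed for sensing dry air (FBgn0259683, chromosome 2L, 22189526 to 22214376), stood at 13.7, 12.7 and 13.9 CPM in CO13N and at 15.9, 11.5 and 11.7 CPM in RG11N. In CS it stood at 4.11, 3.62 and 3.03 CPM, and in the hybrid at 5.56, 3.38 and 4.25 CPM. Every CO13N and RG11N library was above every CS and hybrid library. CO13N was higher than CS by 1.9 ± 0.29 on the log2 scale (standard error, edgeR adjusted p = 0.000602), or 3.73-fold, and RG11N than CS by 1.86 ± 0.29 (adjusted p = 0.00053). The hybrid was 2.96-fold lower than RG11N (adjusted p = 0.00329) and 3.05-fold lower than its named parent CO13N (adjusted p = 0.0216). Against its other named parent, CS, the hybrid differed by 0.29 ± 0.29 (approximate 95% interval -0.31 to 0.9, adjusted p = 0.871). Its mean of 4.4 CPM lay below the mean of the parents, 8.49 CPM, and at 8.27% of the way from CS to CO13N, a description without a test. The call against CO13N ended without CO13N replicate 1, 2 or 3 or hybrid replicate 2 or 3, with adjusted p up to 0.141 and log2 differences of -1.8 to -1.43. The strains that were high, CO13N and RG11N, are 1 selective and 1 promiscuous, and in the contrast of selective with promiscuous Ir40a differed by 0.17 ± 0.2.

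Ir68a, needed for sensing moist air (FBgn0036150, chromosome 3L, 11232972 to 11236218), followed the same order of genotypes with a steeper range. It stood at 5.11, 6.9 and 10.4 CPM in CO13N, 6.98, 8.58 and 3.36 CPM in RG11N, 2.34, 1.3 and 0.591 CPM in the hybrid, and 0.442, 0 and 0.209 CPM in CS, where it had 19 counts in all. No library of CO13N or RG11N overlapped the hybrid, and no hybrid library overlapped CS. CO13N was higher than CS by 5.06 ± 0.83 on the log2 scale (edgeR adjusted p = 0.00122) and RG11N by 4.81 ± 0.83 (adjusted p = 0.00133). The approximate 95% intervals were 9.87-fold to 112-fold and 8.42-fold to 93.7-fold. By voom neither passed, at log2 differences of 5.68 (adjusted p = 0.0673) and 5.39 (adjusted p = 0.0718). The hybrid differed from CS by 2.65 ± 0.78, from CO13N by -2.4 ± 0.71 and from RG11N by -2.16 ± 0.71, and none of these passed by edgeR (adjusted p = 0.181, 0.431 and 0.101). By DESeq2 the difference from CS passed (adjusted p = 0.0294), as did that from RG11N (adjusted p = 0.0299), which also passed by edgeR without CS replicate 2 (adjusted p = 0.031).

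Ir21a, a receptor of cool sensing, stood at 2.21 to 5.77 CPM in CO13N, 2.62 to 7.26 CPM in the hybrid, 1.66 to 6.72 CPM in CS and 3.3 to 5.2 CPM in RG11N, and all groups overlapped. A transcript on the opposite strand, asRNA:CR43609, covers 79.38% of the exonic length of Ir21a and held 12 counts over the 12 libraries. The strand setting of the counting is not given, so how reads in the shared part were assigned is not known. The level of Ir21a is therefore uncertain. Ir93a, the partner that Ir21a, Ir40a and Ir68a share in the antenna, overlapped in all groups too, at 2.59 ± 1.14 CPM in the hybrid, 2.18 ± 0.571 in RG11N, 2.03 ± 1.11 in CO13N and 1.34 ± 0.521 in CS (mean ± SD, n = 3).

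**Figure D4:**
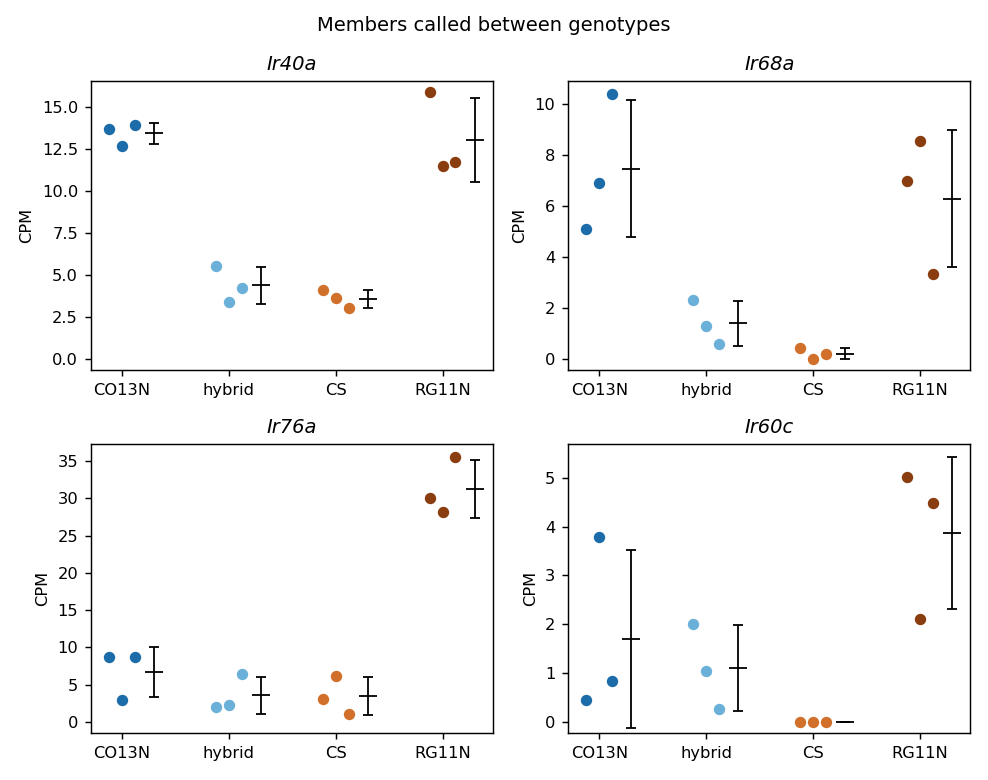
CPM of the 4 ionotropic receptor genes that edgeR called in at least 1 comparison, with 1 point per library and the mean ± SD (n = 3) in black beside each genotype. Ir40a and Ir68a are high in CO13N and RG11N, Ir76a is at 28.2 CPM or more only in RG11N, and Ir60c is at 0 in the 3 CS libraries.

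Ir40a and Ir68a are known from the antenna, and their values were therefore set beside the antennal markers. CO13N, with Ir40a at 12.7 CPM or more, held no count of Ir8a, Ir31a, Ir84a or of Obp59a, an odorant-binding protein of humidity-sensing hairs of the antenna. CS, with the lowest Ir40a and Ir68a, held Obp59a at 11.9 to 53.4 CPM and Ir8a at 0.815 to 8.4 CPM. Other antennal markers did have counts in CO13N. There lush stood at 59.7, 75.9 and 141 CPM, against 62.2 to 231 CPM in CS. In RG11N replicates 1 and 2 lush stood at 1.34 and 3.49 CPM. Obp83a stood at 3.51 to 6.98 CPM in CO13N against 375 to 1210 CPM in CS, and Obp83b at 0.957 to 4.13 against 180 to 740 CPM. Obp19a was at most at 1.88 CPM and Ir75a at 1.27 CPM in CO13N, against 32.8 to 101 and 2.92 to 5.48 CPM in CS. Of the 5 libraries holding over 50 CPM of odorant receptors, Ir40a stood at 11.7 CPM in RG11N replicate 3 against 3.03 to 4.25 CPM in CS and hybrid replicate 3. Ir68a in the same RG11N library stood at 3.36 CPM against at most 0.591 CPM in the other 4. Within the hybrid and within RG11N, however, Ir68a was lowest in the replicate with the high odorant receptor sum. When the 5 libraries were left out, which removes CS altogether, the hybrid stayed below RG11N in Ir40a (-1.6 ± 0.34, adjusted p = 0.0282), and Ir68a also passed (-2.08 ± 0.49, adjusted p = 0.0487). The difference of Ir40a between the hybrid and CO13N was then -1.58 ± 0.32 and did not pass (adjusted p = 0.0979). All CS libraries had high and all CO13N libraries low odorant receptor sums, so for that pair strain and antennal transcripts cannot be told apart. With the log2 odorant receptor sum as a covariate, Ir40a differed between CO13N and CS by 1.76 (adjusted p = 0.0562) and Ir68a by 3.64 (adjusted p = 0.067). Between RG11N and CS they differed by 1.78 (adjusted p = 0.00489) and 3.99 (adjusted p = 0.005).

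The other genes known from the antenna were Ir75b, Ir75c, Ir75d, Ir41a, Ir92a and Ir76a. Ir75b, an olfactory receptor of acids, had counts only in the 5 libraries rich in odorant receptors. It stood at 0.578, 4.86 and 1.78 CPM in CS, 0.969 CPM in RG11N replicate 3 and 3.72 CPM in hybrid replicate 3, and had 0 counts in the other 7. It was the only tested gene of the 29 whose 5 values all lay above the other 7, as 0.846% of all tested genes did. This is a description and not a test. Ir75b passed the filter through those 5 libraries alone, and the libraries were picked by odorant receptor genes, which count among all tested genes. The left-out Ir8a, Ir31a, Ir64a, Ir75a and Ir84a separated in the same way. Its neighbour Ir75c had 5 to 10 counts in CS and 9 in RG11N replicate 3, and none elsewhere. Ir75d had counts in CS replicates 1 and 2 and hybrid replicate 3, but 90.74% of its exonic length is shared with other genes, mainly Prp6 on the opposite strand at 13.6 to 22.5 CPM, and its counts are uncertain. Ir75c was under the filter, and edgeR called neither Ir75b nor Ir75d in any comparison, although DESeq2 called Ir75b in 4 of them. Ir41a, a receptor of amines, had counts in 9 libraries at up to 1.58 CPM. Ir92a, a receptor of ammonia, stood at up to 3.27 CPM in CS replicate 2 and had 0 counts in all 3 RG11N libraries, RG11N replicate 3 included. Its pooled level in CS was 49-fold above a limit of 3 counts over the pooled RG11N libraries. Without CS replicate 2, which held 84 of the 131 counts, this bound was 25.4-fold. The bound covers counting error only. The approximate 95% interval of RG11N against CS reached 0.104-fold, which allows a smaller difference. The edgeR adjusted p was 0.0582, and 0.0316 without hybrid replicate 1. DESeq2 called Ir92a as lower in RG11N than in CS (adjusted p = 0.000516), the hybrid (adjusted p = 0.00427) and CO13N (adjusted p = 0.0171).

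Ir76a, a receptor of amines in the antenna (FBgn0260874, chromosome 3L, 19799278 to 19803427), was high in RG11N. It stood there at 30, 28.2 and 35.6 CPM, against 8.68, 2.87 and 8.67 CPM in CO13N, 2.04, 2.21 and 6.36 CPM in the hybrid and 3.06, 6.11 and 1.04 CPM in CS. Every RG11N library lay above every library of the other genotypes, the highest of which was CO13N replicate 1. RG11N was higher than CS by 3.2 ± 0.69 on the log2 scale (edgeR adjusted p = 0.0241), or 9.21-fold, and the hybrid was lower than RG11N by 3.14 ± 0.69 (log2 fold change -3.14, adjusted p = 0.0311). CO13N differed from RG11N by -2.21 ± 0.66 without passing (adjusted p = 0.107). That difference passed by DESeq2 and by voom (adjusted p = 0.0039 and 0.00213), without CS replicate 3 (adjusted p = 0.0465), and without the 5 libraries rich in odorant receptors (-2.1 ± 0.4, adjusted p = 0.0199). The calls of Ir76a were not firm to leaving out a library. The one against CS ended without CS replicate 1 or any RG11N replicate (adjusted p up to 0.128), and the one against the hybrid also without hybrid replicate 1 or 2 or CO13N replicate 1 or 3 (adjusted p up to 0.134). The log2 difference kept its sign each time, at 2.77 to 3.93 against CS and at -3.89 to -2.87 in the hybrid against RG11N.

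Exons of CG14102 on the opposite strand share 14.08% of the exonic length of Ir76a. CG14102 stood at 8.57, 9.54 and 11.9 CPM in RG11N, 3.15 to 3.33 CPM in CO13N, 1.77 to 5.56 CPM in the hybrid and 3.13 to 7.9 CPM in CS. It was therefore also highest in RG11N, at levels below those of Ir76a there, and its part in the difference was not tested. RG11N replicates 1 and 2 had odorant receptor sums of 21.7 and 24.1 CPM and Ir76a at 30 and 28.2 CPM, whereas CS replicate 2, with a sum of 248 CPM, had Ir76a at 6.11 CPM. Within RG11N and within the hybrid, Ir76a was highest in the replicate with the high odorant receptor sum, at 35.6 CPM against 28.2 and 30 CPM and at 6.36 CPM against 2.04 and 2.21 CPM. The part of antennal transcripts in these values was not tested. Summed neuronal markers were also highest in RG11N, by less than Ir76a, and their part was not tested.

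Ir60c, annotated as a pseudogene (FBgn0259186, chromosome 2R, 24517824 to 24519152), was not detectable in the CS libraries at this depth. It had 15, 145 and 27 counts in CO13N, 61, 31 and 9 in the hybrid, 176, 59 and 139 in RG11N and 0, 0 and 0 in CS. In CPM this was 0.454, 3.79 and 0.833, then 2.01, 1.04 and 0.253, then 5.01, 2.1 and 4.49. The spread within CO13N and the hybrid was wide, and the 9 libraries with a count were all those outside CS. Against a limit of 3 counts over the pooled CS libraries, pooled levels were 50.4-fold higher in CO13N, 29.5-fold in the hybrid and 111-fold in RG11N. These bounds cover counting error only. The approximate 95% intervals against CS started lower, at 34.3-fold, 22.6-fold and 74.8-fold. Without CO13N replicate 2, which held 145 of the 187 counts, the CO13N bound was 17.9-fold, and without hybrid replicate 1 the hybrid bound was 17.1-fold. The edgeR adjusted p was 0.00708, 0.0276 and 0.00203. The call of CO13N against CS ended by voom (adjusted p = 0.14) and in a fit to those genotypes alone (adjusted p = 0.1). The call of the hybrid against CS ended without any 1 of the CS replicates or hybrid replicates 1 or 2 (adjusted p up to 0.0877). With the covariate for odorant receptors only RG11N against CS remained called (adjusted p = 0.0071), and in RG11N replicate 3, which has a high odorant receptor sum, Ir60c stood at 4.49 CPM. Ir60b and Ir60d lie on either side of Ir60c in a tandem cluster and held 43 and 10 counts in all. Ir60c passed the filter through the genotypes in which it was present, and how reads shared with close copies were counted is not given in the sources used here.

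**Figure D5:**
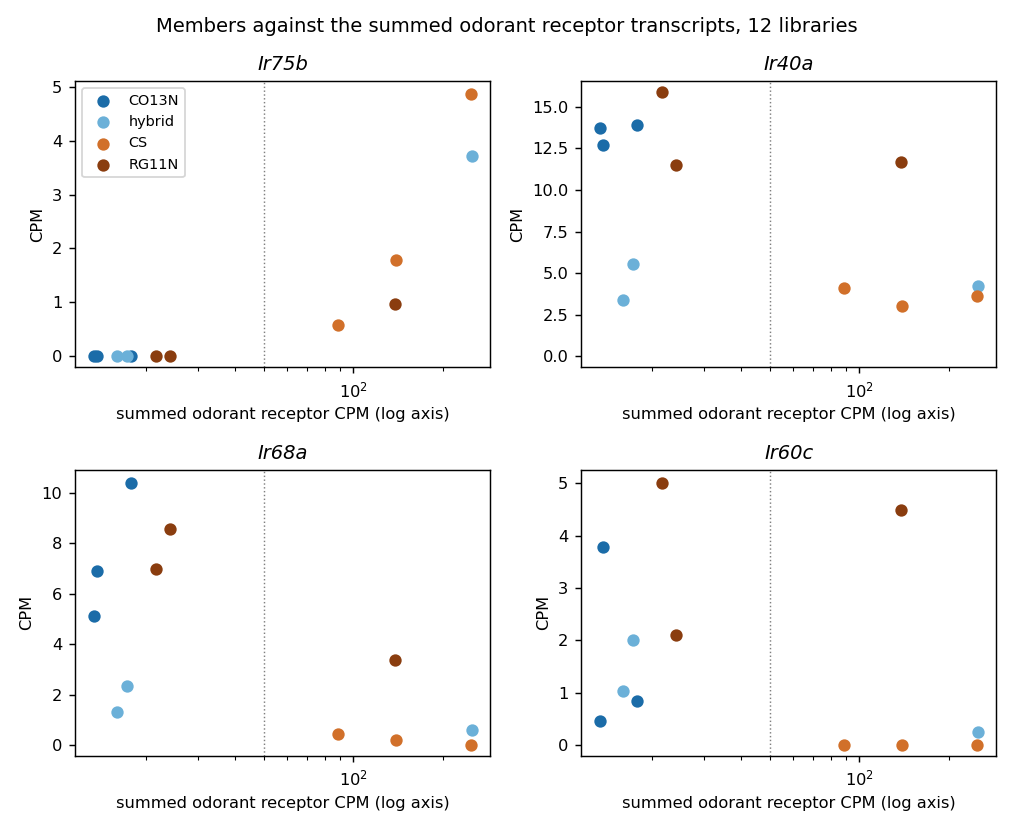
CPM of 4 ionotropic receptor genes (vertical axes) against the summed CPM of the 60 odorant receptor genes (horizontal log axis), 1 point per library, with the dotted line at 50 CPM. Ir75b is at 0 in the 7 libraries left of the line, while Ir40a, Ir68a and Ir60c are higher in RG11N replicate 3 than in the 3 CS libraries on the same side.

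Receptors with known taste roles were detected, and edgeR called none of them in any of the 8 comparisons, while DESeq2 called Ir56b in CO13N against CS. All 9 had a count and 7 passed the filter. Ir62a, needed for the taste of calcium, stood at 10.4, 8.83 and 12.6 CPM in CO13N replicates 1 to 3, at 8.92, 8.93 and 5.55 CPM in hybrid ones, at 10.6, 11 and 16.9 CPM in CS ones and at 10.7, 12.6 and 7.07 CPM in RG11N ones. The hybrid lay below CS without overlap, by -0.72 ± 0.3 (adjusted p = 0.463).

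Ir56b, a receptor of low salt taste, was more variable. It stood at 1.03, 2.59 and 0.71 CPM in CO13N, 7.6, 0.937 and 4.7 CPM in the hybrid, 4.55, 6.77 and 8.98 CPM in CS and 3.19, 1.67 and 5.29 CPM in RG11N. CO13N and CS did not overlap, and CO13N differed from CS by -2.22 ± 0.69, which did not pass (edgeR adjusted p = 0.105). It passed by DESeq2 (adjusted p = 0.0345) and without hybrid replicate 2 (adjusted p = 0.0423). Ir51b stood at 4.63, 4.28 and 4.48 CPM in CO13N, 4.21, 3.31 and 2.65 CPM in the hybrid, 2.58, 2.33 and 2.99 CPM in CS and 4.61, 4.42 and 3.65 CPM in RG11N. The hybrid lay below CO13N without overlap, and CS lay below CO13N and RG11N, with log2 differences of 0.76 ± 0.44 and 0.68 ± 0.44 in their favour that did not pass (adjusted p = 0.462 and 0.435).

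Ir7c, a receptor of high salt taste, and Ir7a, of acetic acid taste, were at most at 2.85 and 2 CPM. Ir56d, which serves fatty acid taste, stood at 0.726 to 2.53 CPM in CO13N and CS and was at 0 in RG11N replicate 2. Ir20a, of amino acid taste, was found in 7 libraries at up to 1.38 CPM. Ir60b, known from the pharynx, and Ir94e, known from amino acid taste of the labellum, had 43 and 32 counts in 3 libraries each and were under the filter.

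Of the remaining 36 genes, 21 had a count and 11 passed the filter. Ir60a was the most abundant, at 9.16, 10.6 and 9.78 CPM in CO13N, 7.34, 11.1 and 9.51 CPM in the hybrid, 6.52, 7.59 and 12.7 CPM in CS and 7.43, 8.37 and 4.1 CPM in RG11N, and edgeR did not call it. The CO13N libraries lay above the RG11N libraries, and the other pairs of genotypes overlapped. Ir7d, with a mean of 1.56 CPM, was the only other one with a count in all 12 libraries. Ir11a, Ir47a and Ir94h, with means of 1.37, 1.83 and 1.09 CPM, were found in 11 libraries. Ir100a, Ir87a, Ir7g, Ir51a and Ir10a had means under 0.5 CPM. Ir10a was found in all 3 hybrid libraries, at 32, 22 and 6 counts, and in CS replicate 2 at 13 counts, and had none in CO13N and RG11N. By pooled counts, with 3 counts as the limit, the hybrid was 21.7-fold above CO13N and 19.7-fold above RG11N. Without hybrid replicate 1 these bounds were 14.8-fold and 13.4-fold, and they cover counting error only. The approximate 95% intervals started at 1.35-fold and 1.27-fold, and edgeR did not call Ir10a (lowest adjusted p = 0.261).

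Among the genes left out by the rule, the 4 Ir52 genes were found in every library, at 3.86 to 91.4 CPM. Ir8a, Ir31a and Ir84a had counts only in the 5 libraries rich in odorant receptors, and Ir64a and Ir75a stood at 1.27 CPM or less in the other 7. Of 13 ionotropic glutamate receptor genes of synapses, which are the related channels, 10 were tested and edgeR called 0 in each of the 8 comparisons. At an unadjusted p under 0.05 there were 0 to 2 per comparison, DESeq2 called 1 in the hybrid against RG11N and 0 elsewhere, and voom called 0.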

How the data were processed

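The authors deposited raw counts per FlyBase gene for 12 libraries of polyA-selected RNA made with Nextera XT, per the labels' protocols. Subread and build dm6 are named in the submitters' processing notes, and the strand setting, the handling of reads that align to several places and the annotation release are not given in the sources used here. Overlapping genes and close copies are therefore uncertain. Symbols, exon lengths and positions came from Ensembl release BDGP6.54.115, whose assembly matches dm6, and 17710 of 17807 identifiers had a symbol.

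Robust quasi-likelihood F tests (edgeR 4.0.16, R 4.3.3; 8 residual degrees of freedom) were run on TMM-scaled libraries after filterByExpr (minimum count 10) and adjusted over all 10996 genes. Standard errors and 95% intervals of log2 fold changes are approximate, derived from the F statistic. CPM used total counts scaled by TMM, sums over lists total counts, and RPKM the merged exon length. The pipeline was tested on simulated data. The replicate numbers were not taken as pairs in the main model, as the labels name no pairing. Of 18 same-numbered pairs of libraries, 2 had deviations correlated over 0.1 (range -0.089 to 0.209), and 8 of 12 libraries correlated best with their own number.

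Full values are given for Ir25a, Ir76b, the 8 genes highest in mean RPKM and every gene called. Members, gene lists and alternatives were chosen with earlier results of these data known. Alternatives were other size factors and filters, DESeq2 1.42.0, voom (limma 3.58.1), a replicate factor, an odorant receptor covariate, fits to fewer libraries and each library left out. Figures used matplotlib 3.10.9.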

Additional observations from a re-analysis of the deposited data

How the results depend on the processing

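With RLE or upper-quartile size factors, and with a filter of 1 CPM in 3 libraries, all 8 counts of called ionotropic receptor genes equalled those reported. Counts that changed under the other settings follow, with the share of all tested genes called under the same setting in parentheses. Without a filter the hybrid differed from RG11N in 1 gene (3.89%), RG11N from CS in 5 (4.75%) and the selective from the promiscuous mean in 1 (3.45%). DESeq2 called 5 in CO13N against CS (5.87%), 3 in CO13N against RG11N (7.47%), 2 in the hybrid against CS (2.14%), 4 in the hybrid against RG11N (7.65%), 5 in RG11N against CS (9.52%), 2 in the hybrid against CO13N (0.8%), 2 in the selective against the promiscuous mean (7.15%) and 5 for any genotype (11.9%). DESeq2 thus called a larger share of all genes in each of the 8 comparisons. voom called 1 in CO13N against CS (2.92%), 1 in CO13N against RG11N (4.11%), 0 in the hybrid against CS (0.555%) and 3 in RG11N against CS (3.97%). With replicate number as a block, 4 were called in CO13N against CS (3.46%), 0 in the hybrid against CS (1.02%), 1 in the hybrid against RG11N (5.09%), 3 in RG11N against CS (6.08%) and 3 for any genotype (7.34%). Under the block Ir76a did not pass in RG11N against CS (adjusted p = 0.0752, edgeR) or for any genotype (adjusted p = 0.0719). The labels do not say whether libraries of the same number were paired. Of 12 libraries, 8 correlated best with their own number, so a shared part of the replicates is not settled. With the odorant receptor covariate 0 were called in CO13N against CS (0.891%), 0 in the hybrid against CS (0.637%) and 0 in the hybrid against CO13N (0.118%). Without the libraries over 50 CPM of odorant receptors 1 was called in CO13N against RG11N (2.6%), 3 in the hybrid against RG11N (1.8%) and 0 in the hybrid against CO13N (0.137%), and comparisons with CS could not be made. With only the genotypes compared, 2 were called in CO13N against CS (3.06%), 1 in CO13N against RG11N (3.77%) and 0 in the hybrid against CS (0.853%). In each case the cause was not tested.

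With 1 library left out, the counts ranged as follows, with the number of all tested genes called in parentheses. They were 3 to 4 in CO13N against CS (206 to 372), 0 to 1 in CO13N against RG11N (245 to 524) and 0 to 1 in the hybrid against CS (65 to 122). They were 1 to 3 in the hybrid against RG11N (264 to 572), 3 to 5 in RG11N against CS (378 to 756) and 0 to 1 in the hybrid against CO13N (7 to 30). For the selective against the promiscuous mean they were 0 to 1 (288 to 535), and for any genotype 3 to 4 (548 to 854). Of 313 repeats of the results of called genes under all alternatives, 268 stayed past the threshold and 45 did not. Of the repeated log2 differences 0 changed sign, and the test for any genotype has no sign to change. Ir40a and Ir60c in RG11N against CS and Ir40a in the hybrid against RG11N passed in every alternative run. The lowest folds of Ir60c, Ir92a and Ir10a with a library left out were chosen after seeing the data.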

Other observations

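Low counts were scattered among replicates. Of the 29 tested ionotropic receptor genes, 17 had no count in 1 library and 10 or more counts in another library of the same genotype. The same count was not made over all tested genes, so it cannot be read as particular to this family. The 5 genes that follow stood out in this way after their values were seen. Ir7c, Ir11a, Ir47a, Ir56d and Ir94h had a count in 11 libraries and none in RG11N replicate 2, where only 19 of the 57 genes had a count, against 23 to 30 in each of the other libraries. In RG11N replicate 1 the same genes held 100, 65, 131, 62 and 19 counts. Over all tested genes, 83 were at 0 in RG11N replicate 2 alone and 132 in CS replicate 2 alone, against 4 to 55 in each of the other libraries.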
